A study of Mus musculus with 13 samples.

Results

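The genes followed here are Hsf1, which encodes the heat shock transcription factor HSF1, and 9 genes for cytosolic chaperones and cochaperones that it is known to control: Hspa1a, Hspa1b, Hspa8, Hsp90aa1, Hsp90ab1, Dnajb1, Hsph1, Hspb1 and Bag3. They were chosen by name, as the rows of the count table with these symbols, and all 10 were found among its 32544 gene symbols. The table holds 13 Quant-seq libraries of lung, a method that reads the 3′ end of polyadenylated transcripts, prepared from 500 ng of RNA each. The animals were wild-type C57BL/6J males, bought at 7 weeks of age, whose lungs were perfused and frozen after 5 days in 21% oxygen (Normoxia, 7 libraries) or 80% oxygen (Hyperoxia, 6 libraries). Neither group carried a transgene or a deletion. Since the labels do not state that each library came from a mouse of its own, the p-values measure the spread between these libraries.

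HSF1 is held inactive in unstressed cells and, when unfolded proteins accumulate, assembles into a trimer that binds heat shock elements, which are inverted repeats of the bases GAA, in the promoters of chaperone genes. HSP70 proteins (Hspa1a and Hspa1b inducible, Hspa8 constitutive) bind unfolded segments in cycles that J-domain proteins such as Dnajb1 start and that nucleotide exchange factors such as Hsph1 and Bag3 complete. HSP90 (Hsp90aa1 the inducible and Hsp90ab1 the constitutive form) finishes the folding of kinases and steroid receptors, and Hspb1 is a small heat shock protein that holds unfolded proteins without using ATP.

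Of the 10 genes, Hsp90aa1 rose in hyperoxia, 2.27-fold, and was the only one past the test over all genes, which is 1 of 9 tested (11.1%) where 11.8% of all genes tested were called higher. Its constitutive paralog Hsp90ab1 was 1.67-fold higher and just missed the threshold, a call that changed with the libraries and terms in the fit. Hspa1a, an inducible HSP70 gene that is among the most strongly raised in a heat shock, did not pass the test (log2 fold change -0.42), nor did Dnajb1 (-0.03) and Bag3 (0.00). Hspa1b had too few counts to be tested, and Hsf1 itself was measured at low counts.

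The promoters of 6 of these genes were found in the RefSeq tables of build GRCm38.p6, from 250 bases before to 50 bases after the annotated start, and 4 of the 5 that hold a match to the element through which HSF1 is known to act are shown: those of the paired copies Hspa1a and Hspa1b, and those of Hsph1 and Hspb1, which hold more than 1 match. Capitals mark each match to GAANNTTC or TTCNNGAA, the minimal pair of inverted repeats (N is any base). Both patterns read the same on either strand, and matches that share bases are merged in capitals. Hspa1a and Hspa1b were identical at 296 of their 300 bases.
Hspa1a, chr17:34972107-34972406, minus strand: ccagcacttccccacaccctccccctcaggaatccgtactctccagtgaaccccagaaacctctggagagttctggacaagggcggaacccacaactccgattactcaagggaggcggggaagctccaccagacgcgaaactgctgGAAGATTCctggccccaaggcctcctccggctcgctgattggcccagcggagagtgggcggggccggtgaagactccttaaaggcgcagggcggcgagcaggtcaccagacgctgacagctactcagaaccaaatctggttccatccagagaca
Hspa1b, chr17:34959189-34959488, minus strand: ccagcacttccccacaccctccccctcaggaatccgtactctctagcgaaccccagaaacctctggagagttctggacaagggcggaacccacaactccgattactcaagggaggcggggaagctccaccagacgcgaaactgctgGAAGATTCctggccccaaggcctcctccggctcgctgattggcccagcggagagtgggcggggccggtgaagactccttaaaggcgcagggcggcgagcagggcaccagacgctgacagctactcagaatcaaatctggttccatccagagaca
Hsph1, chr5:149636287-149636586, minus strand: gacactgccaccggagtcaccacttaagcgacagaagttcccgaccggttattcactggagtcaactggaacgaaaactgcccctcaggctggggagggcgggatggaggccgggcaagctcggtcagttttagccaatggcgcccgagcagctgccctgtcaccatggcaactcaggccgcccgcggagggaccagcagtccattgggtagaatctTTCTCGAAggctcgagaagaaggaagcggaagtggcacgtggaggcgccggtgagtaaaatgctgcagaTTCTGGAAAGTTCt
Hspb1, chr5:135887669-135887968, plus strand: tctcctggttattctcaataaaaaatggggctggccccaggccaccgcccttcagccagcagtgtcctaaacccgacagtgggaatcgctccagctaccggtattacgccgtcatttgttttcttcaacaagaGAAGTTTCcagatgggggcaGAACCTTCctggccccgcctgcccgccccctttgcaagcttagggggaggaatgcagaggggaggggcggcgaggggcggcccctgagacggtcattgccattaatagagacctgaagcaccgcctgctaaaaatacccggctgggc
The pair was found for 5 of the 6 genes, and in 15.1% of the 32851 promoters in the table, where a gene can have several (Hsph1 and Dnajb1 have 2 each), so the 2 shares do not count the same unit. The match began at position -104 from the annotated start in both Hspa1a and Hspa1b, and at -117 and -97 in Hspb1. In Hsph1 it began at -33, 36 and 41 from the first of its 2 annotated starts, which is the one shown, and at -54, 15 and 20 from the other. The last 2 of these matches overlap as one run of 3 alternating repeats, a pattern that in either order is held by 0.603% of promoters. Bag3 had a match at position 42, and no match to these letters lay in the 2 windows of Dnajb1. The promoters of Hsf1, Hspa8, Hsp90aa1 and Hsp90ab1 are not shown.

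Libraries held between 1607111 and 4540288 counts, and a count of 3, taken as the floor, was worth between 0.65 and 1.83 CPM (counts scaled to a fixed library total, after TMM, a correction for library composition). Floors cover counting error only. Of the 12496 genes that passed a filter on low counts, 22.6% were called at an adjusted p under 0.05 with edgeR's quasi-likelihood test (52.3% of them higher in hyperoxia, or 38.8% with limma on the deposited log values, which moved the median over all genes tested by -0.13 on the log2 scale). One library, hyperoxia replicate 1, stood apart, with a mean correlation of 0.779 with the other libraries. Mitochondrial genes took 0.944% of its counts (1.94% to 3.24% in the others), it had the fewest genes with a count (14170, where the others had at least 15476), and it held the lowest summed level of the lung identity markers. It was also the highest library for Hsp90aa1 and Hsp90ab1, and the part of these features in the values below was not tested. Values without it are given for each of the heat shock genes and beside the count of each list in which it changed the number of calls. Library names begin with a single letter, whose meaning the labels do not give. Here they were divided into 2 sets, B to M (5 normoxic, 3 hyperoxic) and O to S (2 normoxic, 3 hyperoxic), which the labels do not define. Values within each set are given beside the pooled ones for the heat shock genes tested. They are also given for the companion genes named whose call was not the same in both sets. All 6 lung identity markers were present, but their summed level was 20696 to 70107 CPM in normoxia and 885 to 14704 CPM in hyperoxia, with no overlap, and 2 of 6 were lower and 0 higher, with 5 negative and a median log2 fold change of -0.58. Without hyperoxia replicate 1 the median was -0.34, with 2 lower and 1 higher, the endothelial gene Cldn5 at 0.71 (edgeR adjusted p = 0.0403; named after its values were seen). The club cell gene Scgb1a1 and the surfactant gene Sftpc fell (log2 fold change -2.96 and -2.72, edgeR adjusted p = 0.00188 and 0.00418). In whole tissue, fewer cells of a type and less RNA per cell cannot be told apart.

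Of the 9 genes tested, 1 was higher and 0 were lower in hyperoxia, where 11.8% and 10.8% of all genes tested were called higher and lower. At an unadjusted p under 0.05, 2 were higher and 0 lower, beside 17.5% and 17.2% of all genes. DESeq2 called 2 higher and 0 lower, where it called 14.1% of all genes higher, and limma-voom 1 and 0, where it called 11% higher. With the study's further requirement of a log2 fold change above 1.5, 0 were called higher, beside 1.55% of all genes. The median log2 fold change of the 9 genes was 0.38, compared with -0.03 for all genes tested, and 5 were positive. Without hyperoxia replicate 1, where Hspa1b also passed the filter, 3 of 10 genes were higher and 0 lower, and 15.2% of genes tested were called higher. The median was then 0.13 over the 10 genes, 0.18 over the same 9, and -0.01 for all genes tested. Within the letter set B to M 1 of the genes was higher (Hsp90aa1), beside 5.86% of all genes, and within O to S 2 were (Hspa8 and Hsp90aa1), beside 11.2%.

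**Figure D1:**
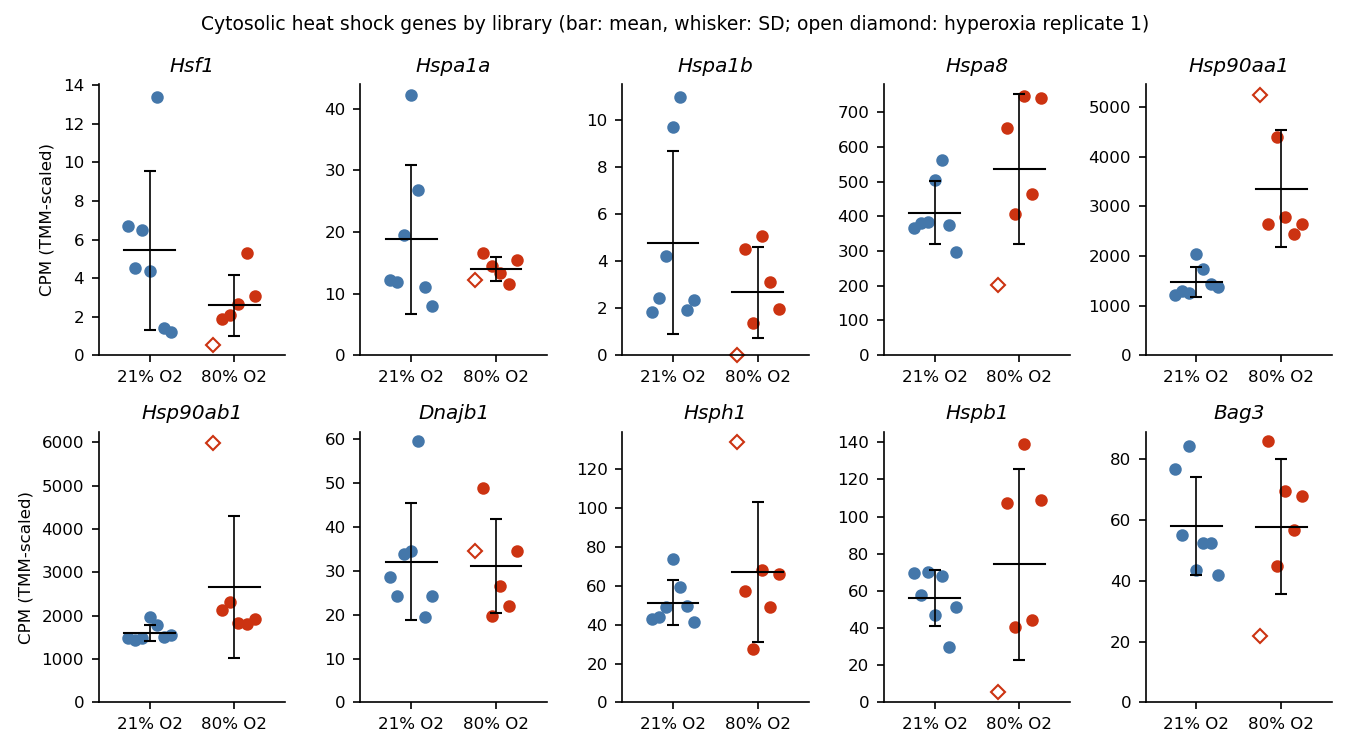
Level of each of the 10 genes (y axis, TMM-scaled CPM from 0) in every library at 21% oxygen (blue, n = 7) and 80% oxygen (red, n = 6); black bars are means, whiskers SD, and the open diamond is hyperoxia replicate 1. The 2 groups are apart for Hsp90aa1 alone, and the diamond is the highest hyperoxic library for Hsp90aa1, Hsp90ab1 and Hsph1 and the lowest for Hsf1, Hspa1b, Hspa8, Hspb1 and Bag3.

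The transcription factor gene Hsf1 (chr15:76477422-76501913, GRCm38, plus strand) was read between 1 and 22 times per library. Its level was 1.18 CPM in the lowest, 4.52 in the median and 13.4 in the highest normoxic library, and 0.53, 2.38 and 5.29 CPM in hyperoxia. The groups overlapped, and the lowest hyperoxic library, replicate 1, rested on 1 count, which is under the floor. The log2 fold change was -0.93 (SE 0.53, 95% interval -2.05 to 0.18, edgeR adjusted p = 0.225), and -0.74 without that library (edgeR adjusted p = 0.299). Its direction was not the same in the 2 letter sets. In B to M the 5 normoxic libraries lay between 4.35 and 13.4 CPM, above all 3 hyperoxic ones, which reached 2.07. In O to S the 2 normoxic libraries were at 1.18 and 1.39 CPM, below all 3 hyperoxic ones, which began at 2.68. The log2 fold changes fitted within each set were -2.06 and 1.45 (edgeR adjusted p = 0.0524 and 0.103). In a separate fit of both sets together, edgeR's interaction test put the difference at 3.57 (SE 0.84, adjusted p = 0.538). That test called 0 of the 12496 genes, with 1158 at an unadjusted p under 0.05. Among the 9 heat shock genes tested, Hsf1 was the only one of those 1158.

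The other genes tested of HSF1's family and its regulation overlapped between the groups and did not pass the test, and Hsf4 and Hsf5 did not pass the filter on low counts. Hsf2, which encodes a related factor able to join HSF1 trimers, had a log2 fold change of 0.13 (SE 0.15, edgeR adjusted p = 0.578; 0.08 without hyperoxia replicate 1), with 3 hyperoxic libraries above every normoxic one. Hsbp1, whose product binds HSF1 and is described as a negative regulator, had 0.18 (SE 0.14, edgeR adjusted p = 0.396; 0.09 without it), with 2 hyperoxic libraries above every normoxic one. None of the list was called by edgeR, DESeq2 or limma-voom, and 0 of its 2 genes tested were under an unadjusted p of 0.05.

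Among the HSP70 genes, the inducible Hspa1a (chr17:34969190-34972156, minus strand) did not pass the test. Normoxic libraries ranged from 7.99 through a median of 12.3 to 42.2 CPM, and hyperoxic libraries from 11.5 through 14.0 to 16.5 CPM. All 6 hyperoxic libraries lay inside the range of the normoxic ones, whose upper end was set by normoxia replicates 4 and 5 at 42.2 and 26.8 CPM. The log2 fold change was -0.42 (SE 0.34, 95% interval -1.13 to 0.30, edgeR adjusted p = 0.412). It was -0.37 without hyperoxia replicate 1, -0.05 without normoxia replicate 4, and between -0.54 and -0.05 with each library left out in turn. Within the letter sets B to M and O to S it was -0.57 and 0.48 (edgeR adjusted p = 0.438 and 0.273), with the normoxic libraries of the second at 7.99 and 11.1 CPM. An exon of Gm20481 overlaps Hspa1a on the opposite strand, on the side of its annotated start, and 0 of the 31-base stretches in the last 500 bases of Hspa1a occur on either strand of a transcript of another gene.

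Hspa1b (chr17:34956436-34959238, minus strand), the neighbouring copy with the nearly identical promoter shown above, had between 0 and 29 counts and did not pass the filter on low counts. It was at 1.86, 2.43 and 10.97 CPM in the lowest, median and highest normoxic library and at 0, 2.53 and 5.09 CPM in the hyperoxic ones. The library at 0 was hyperoxia replicate 1, where 3 counts would be 1.599 CPM. Without that library Hspa1b passed the filter, with a log2 fold change of -0.50 (SE 0.51, edgeR adjusted p = 0.501). The highest normoxic libraries were again replicates 5 and 4. The ends of the 2 transcripts differ: of the 470 overlapping stretches of 31 bases in the last 500 bases of the Hspa1a transcript, 0 occur in another gene. For Hspa1b, 17 of 470 (3.62%) occur in other genes, with the largest share in Hacd4 (2.55%).

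The constitutive Hspa8 (chr9:40800984-40810087, plus strand) was at 298, 382 and 562 CPM in the lowest, median and highest normoxic library and at 202, 559.9 and 747 CPM in the hyperoxic ones. Hyperoxia replicates 2, 4 and 6 lay above every normoxic library, and replicate 1 below all of them. The log2 fold change was 0.39 (SE 0.25, edgeR adjusted p = 0.301), and without hyperoxia replicate 1 it was 0.57 (SE 0.18, edgeR adjusted p = 0.0248). It was -0.01 within the letter set B to M and 0.94 within O to S (edgeR adjusted p = 0.988 and 0.0196), and the difference between the sets had an adjusted p of 0.539. Of the 31-base stretches at the end of the Hspa8 transcript, 94.7% also occur in other genes, most of them in the pseudogene Gm15459, which is listed at 0 in every library. Counts of Hspa8 are therefore uncertain to the extent that kallisto divided such reads.

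Of 5 other HSP70 genes tested, 1 was higher and 0 lower in hyperoxia by edgeR, DESeq2 and limma-voom, with 1 higher and 1 lower at an unadjusted p under 0.05. Hspa4, an HSP110-type exchange factor related to Hsph1, was between 157 and 228 CPM in normoxia and between 234 and 321 CPM in hyperoxia. The groups did not overlap, and the log2 fold change was 0.53 (SE 0.12, edgeR adjusted p = 0.00591). For Hspa4 the values within B to M and O to S were 0.70 and 0.32 (edgeR adjusted p = 0.0457 and 0.15). Hspa2, the testis-enriched HSP70, had a log2 fold change of -0.60 (SE 0.28, edgeR adjusted p = 0.142).

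The inducible HSP90 gene Hsp90aa1 (chr12:110690605-110702728, minus strand) was the member that changed. Normoxic replicates 1 to 7 were at 1221, 1296, 1251, 2035, 1743, 1437 and 1369 CPM, and hyperoxic replicates 1 to 6 at 5255, 2636, 4407, 2777, 2436 and 2654 CPM. Every hyperoxic library was above every normoxic one, which held in this direction for 5.6% of all genes tested, and replicates 1 and 3 were the highest. The mean was 1479 ± 301 CPM in normoxia and 3361 ± 1175 CPM in hyperoxia (SD, n = 7 and 6), a log2 fold change of 1.18 (SE 0.21, 95% interval 0.74 to 1.63, edgeR adjusted p = 0.000751). Without hyperoxia replicate 1 it was 1.03 (SE 0.17, edgeR adjusted p = 0.00032). It was 1.52 within the letter set B to M and 0.89 within O to S (edgeR adjusted p = 0.0121 and 0.00309).

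The constitutive form Hsp90ab1 (chr17:45567775-45573271, minus strand) was at 1433, 1507 and 1959 CPM in the lowest, median and highest normoxic library and at 1804, 2033 and 5992 CPM in the hyperoxic ones. The highest was hyperoxia replicate 1. Replicates 2 and 3 were also above every normoxic library, and the other 3 lay within the normoxic range. Its log2 fold change was 0.74 (SE 0.26, 95% interval 0.19 to 1.29, edgeR adjusted p = 0.0509). With the letter set as a term it was called at 0.78 (edgeR adjusted p = 0.0298), and DESeq2 called it at 0.80 (adjusted p = 0.0264). It was 0.34 without hyperoxia replicate 1 (SE 0.12, edgeR adjusted p = 0.0431), and the SD within hyperoxia was then 219 in place of 1640 CPM. The call was also made without hyperoxia replicate 2, 4, 5 or 6, with log2 fold changes of 0.84, 0.86, 0.86 and 0.85 (edgeR adjusted p = 0.0476, 0.0409, 0.0411 and 0.0446). Within the letter sets B to M and O to S the values were 1.19 and 0.26 (edgeR adjusted p = 0.0583 and 0.155). At the end of the transcript, 18.7% of the 31-base stretches occur in other genes, mostly Gm6368, which has at most 4 counts.

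**Figure D2:**
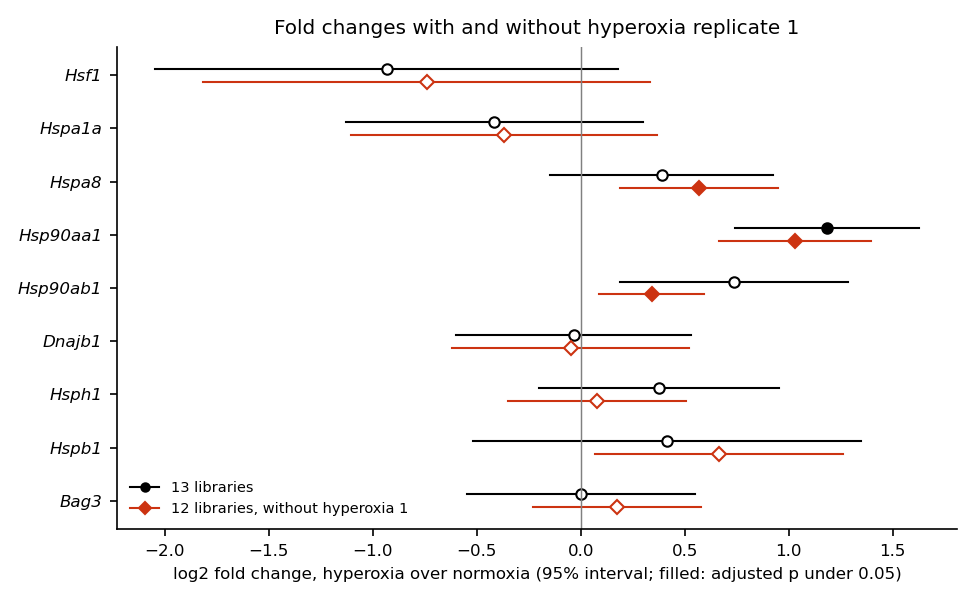
Log2 fold change of hyperoxia over normoxia (x axis) with its 95% interval for the 9 genes tested, from all 13 libraries (black) and without hyperoxia replicate 1 (red); filled symbols mark an edgeR adjusted p under 0.05. Hsp90aa1 is filled in both fits at 1.18 and 1.03, and Hspa8 and Hsp90ab1 are filled in the red fit at 0.57 and 0.34.

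The ratio of paralogs within a library does not depend on how libraries are scaled, so 3 ratios were compared between the groups with exact two-sided permutation tests over the libraries. The ratio of Hsp90aa1 to Hsp90ab1 counts had a geometric mean of 0.915 in normoxia and 1.34 in hyperoxia. It lay between 0.827 and 1.04 in the normoxic libraries, and between 1.24 and 1.90 in hyperoxia replicates 2 to 6. Hyperoxia replicate 1, at 0.877, was inside the normoxic range. The log2 difference was 0.55 (exact p = 0.00408, 0.0122 adjusted over the 3 ratios). Within the letter sets B to M and O to S it was 0.48 and 0.63 (exact p = 0.0714 and 0.1, where the second is the smallest that 2 against 3 libraries can give). The ratio of counts of the 2 genes is not a ratio of molecules per length, and it is compared here between groups alone.

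The sum of the inducible Hspa1a and Hspa1b relative to Hspa8 had geometric means of 0.0514 in normoxia and 0.0347 in hyperoxia, a log2 difference of -0.57 (exact p = 0.0874, adjusted 0.131). In 4 of the 6 hyperoxic libraries it was below every normoxic library. Without hyperoxia replicate 1 the difference was -0.74 (exact p = 0.0265, not adjusted). In edgeR's fit without that library, Hspa8 was itself at 0.57 and Hspa1a at -0.37 on the log2 scale. Within the letter sets B to M and O to S the difference in the ratio was -0.42 and -0.42 (exact p = 0.411 and 0.2). Over paired replicate numbers it was -0.65 (exact sign-flip p = 0.156). The ratio of Hspa1a to Hspa1b differed by 0.51 on the log2 scale (exact p = 0.304, adjusted 0.304), a value that rests on the added count of 2 for the library in which Hspa1b had no count, hyperoxia replicate 1. With 0.5 added instead it was 0.83 (exact p = 0.271), and without that library the difference was 0.13 (exact p = 0.678, not adjusted).

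**Figure D3:**
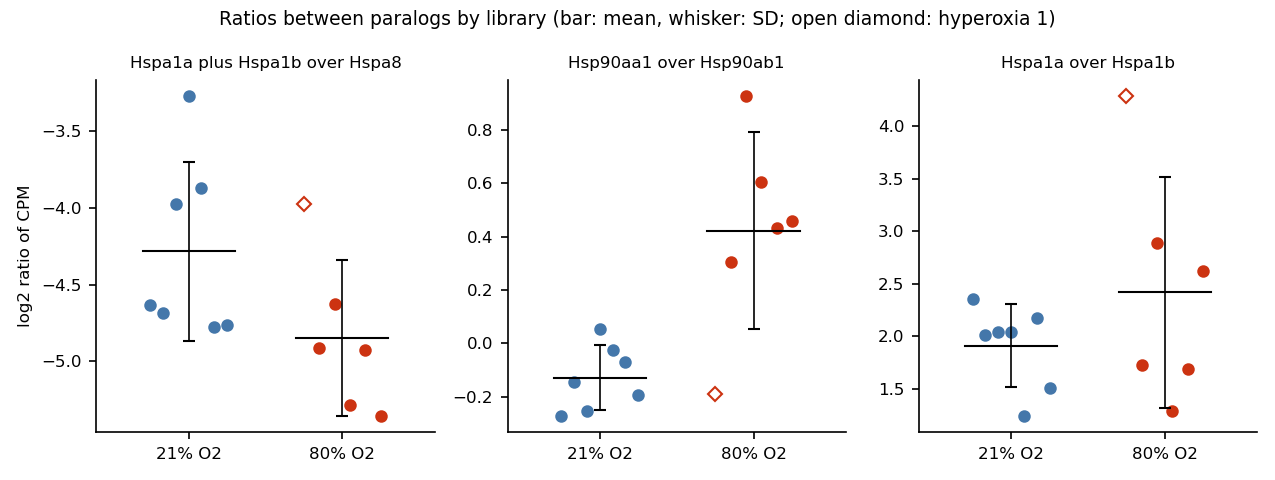
Log2 ratio of paired genes (y axis) in each library at 21% oxygen (blue, n = 7) and 80% oxygen (red, n = 6), with means as bars, SD as whiskers and hyperoxia replicate 1 as an open diamond. For Hsp90aa1 over Hsp90ab1, 5 of 6 hyperoxic libraries are above all normoxic ones, whereas the other 2 ratios overlap between the groups.

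Dnajb1, Bag3 and Hsph1 overlapped between the groups. Dnajb1 (chr8:83608193-83612653, plus strand), the main J-domain partner of inducible HSP70, was at 19.4, 28.6 and 59.7 CPM in the lowest, median and highest normoxic library and at 19.7, 30.5 and 48.9 CPM in the hyperoxic ones. The hyperoxic range lay inside the normoxic one. On the log2 scale the difference was -0.03 (SE 0.27, 95% interval -0.60 to 0.53, edgeR adjusted p = 0.944), and -0.05 without hyperoxia replicate 1. Within the letter sets B to M and O to S it was 0.00 and 0.34 (edgeR adjusted p = 0.999 and 0.353).

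Bag3 (chr7:128523616-128546981, plus strand), which links HSP70 to small heat shock proteins and to autophagy, was at 42.0, 52.4 and 84.2 CPM in the lowest, median and highest normoxic library and at 21.9, 62.2 and 85.7 CPM in the hyperoxic ones. Apart from hyperoxia replicate 1, which was the lowest of all libraries, the 2 groups covered nearly the same range. The fitted log2 difference was 0.00 (SE 0.26, 95% interval -0.55 to 0.55, edgeR adjusted p = 0.999), and within B to M and O to S it was -0.24 and 0.44 (edgeR adjusted p = 0.724 and 0.106). It was 0.18 without hyperoxia replicate 1 (SE 0.19, edgeR adjusted p = 0.529). 2610306O10Rik overlaps it on the same strand.

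Hsph1 (chr5:149614287-149636376, minus strand), the HSP110 exchange factor with a run of 3 repeats in its promoter, was at 41.4, 49.1 and 73.6 CPM in the lowest, median and highest normoxic library and at 27.6, 61.6 and 134 CPM in the hyperoxic ones. Hyperoxia replicate 1 was the highest and replicate 3 the lowest of all 13 libraries. The log2 fold change of 0.38 (SE 0.27, edgeR adjusted p = 0.355) was 0.08 without replicate 1 (SE 0.20, edgeR adjusted p = 0.808). Within B to M it was 0.52 and within O to S 0.41 (edgeR adjusted p = 0.475 and 0.159).

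The small heat shock protein gene Hspb1 (chr5:135887919-135889563, plus strand) was at 29.7, 58.0 and 69.9 CPM in the lowest, median and highest normoxic library and at 5.86, 75.6 and 139 CPM in the hyperoxic ones. Hyperoxic libraries lay on both sides of the normoxic range: replicates 2, 4 and 6 were above all 7 normoxic libraries, replicates 3 and 5 within them, and replicate 1 below. Its log2 fold change was 0.42 (SE 0.44, edgeR adjusted p = 0.542), 0.67 without replicate 1 (SE 0.28, edgeR adjusted p = 0.0884) and -0.14 with limma on the deposited log values. Within the letter set B to M it was -0.24 and within O to S 1.26 (edgeR adjusted p = 0.83 and 0.0676). Of its 31-base stretches 27.0% are shared with Hsp25-ps1, which is listed at 0 in every library.

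Correlations across the 13 libraries were taken on log2 CPM after each group's mean was subtracted. By this measure Hsp90aa1 and Hsp90ab1 varied together (Pearson r 0.82, or 0.88 without hyperoxia replicate 1), as did Hspa8 and Hspb1 (0.88 and 0.66). Hsp90ab1 and Hspb1 ran in opposite directions with all libraries (-0.84), but this rested on hyperoxia replicate 1, without which r was -0.19. Hsp90aa1 and Bag3 also ran in opposite directions within the groups, at -0.81 and, without that library, -0.66. Hspa8 and Hsph1 went from -0.17 to 0.88 when it was left out. Outside the 10 genes, the patterns most like that of Hsp90aa1 belonged to Nme7, Samd8 and Pfkp (r = 0.955, 0.952 and 0.948). The nearest to Hspb1 was Tmem97 (0.99), to Bag3 Laptm4a (0.98), to Hsp90ab1 Snx19 (0.97), to Hsph1 Fam114a2 (0.93), to Hsf1 Dnaaf5 (0.90) and to Hspa1a Mfsd1 (0.82). These values describe 13 libraries that share the group difference and the library that stands apart.

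The genes that work with these chaperones were followed in 7 lists. The filter left 50 of their 61 genes that have a row, of which 12 were higher and 1 was lower, beside 11.8% and 10.8% of all genes tested, and the median log2 fold change was 0.34. Without hyperoxia replicate 1, 15 of 51 were higher and 2 lower.

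The chaperonin TRiC/CCT, a cytosolic ring that folds actin and tubulin, held the most calls, with 5 of 7 subunit genes higher (6 without hyperoxia replicate 1) and a median log2 fold change of 0.70. Tcp1 was between 146 and 168 CPM in normoxia and between 208 and 289 CPM in hyperoxia, with no overlap (log2 fold change 0.70, SE 0.12, edgeR adjusted p = 0.000575). Cct8 was between 160 and 206 CPM in normoxia and between 272 and 508 CPM in hyperoxia (0.83, SE 0.15, edgeR adjusted p = 0.0011). The others called, named after their values were seen, were Cct5, Cct4 and Cct2, at log2 fold changes of 0.72, 0.79 and 0.67. Within the letter sets B to M and O to S, Tcp1 was at 0.62 and 0.77 (edgeR adjusted p = 0.0509 and 0.00598), Cct4 at 0.64 and 1.01 (0.21 and 0.00393) and Cct2 at 0.34 and 1.07 (0.349 and 0.00254). The pair of inverted repeats was found in the promoters of Cct2 and Cct5. Over all lists it was held by 2 of 9 genes that rose and by 9 of 33 that did not, among those with a promoter in the RefSeq table.

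Among HSP90 cochaperones 3 of 13 genes were higher and 0 lower (5 higher and 0 lower at an unadjusted p under 0.05; DESeq2 and limma-voom each called 3 and 0). Fkbp5, a glucocorticoid-induced immunophilin that binds HSP90 in steroid receptor complexes, had a log2 fold change of 2.18 (SE 0.38, edgeR adjusted p = 0.000754). It was between 4.44 and 11.7 CPM in normoxia and between 6.40 and 60.1 CPM in hyperoxia, where 5 of 6 libraries were above all normoxic ones. Ptges3, the p23 cochaperone that stabilizes the closed form of HSP90, was between 192 and 236 CPM in normoxia and between 291 and 537 CPM in hyperoxia (0.75, SE 0.15, edgeR adjusted p = 0.00186). Ppid, named after its values were seen, was the third at 0.45, and it was not called without hyperoxia replicate 2 or normoxia replicate 1, 2, 3 or 7, each of which left 2 calls. It was 0.76 within B to M and 0.10 within O to S (edgeR adjusted p = 0.0445 and 0.718). Without hyperoxia replicate 1, 1 gene was lower, the immunophilin Fkbp4 (also named after its values were seen), at -0.73 (edgeR adjusted p = 0.0119).

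Of 9 HSP70 cochaperones, 1 was higher (2 without hyperoxia replicate 2 or normoxia replicate 3) and 1 lower. Bag5, a nucleotide exchange factor, did not overlap between the groups (33.1 to 51.2 CPM in normoxia and 59.2 to 75.9 CPM in hyperoxia; log2 fold change 0.74, SE 0.13, edgeR adjusted p = 0.000911). Tomm34, which links HSP70 and HSP90 in mitochondrial import, fell from a median of 16.7 to 8.03 CPM (log2 fold change -1.22, SE 0.33, edgeR adjusted p = 0.0133). For Tomm34 it was -1.73 in B to M and -0.32 in O to S (edgeR adjusted p = 0.0402 and 0.486). Of 9 J-domain genes 2 were higher (3 of 10 without hyperoxia replicate 1), Dnajc21 and Dnajc2, at 0.73 and 0.77 (edgeR adjusted p = 0.00247 and 0.0116). In B to M they were at 0.96 and 1.15 (edgeR adjusted p = 0.0158 and 0.0256), and in O to S at 0.37 and 0.23 (edgeR adjusted p = 0.103 and 0.34). Both are known for work on ribosomes, Dnajc21 in the maturation of the large subunit and Dnajc2 at the nascent chain, rather than for a part in the heat shock response.

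Of 5 other small heat shock protein genes none was called by edgeR, DESeq2 or limma-voom, and 1 was higher and 0 lower at an unadjusted p under 0.05. Hspb8, the partner of Bag3, had a log2 fold change of 0.77 (SE 0.33, edgeR adjusted p = 0.106), and 0.99 without hyperoxia replicate 1 (edgeR adjusted p = 0.00305). It was 0.22 within B to M and 1.29 within O to S (edgeR adjusted p = 0.787 and 0.0197). Hspb11, which despite its name belongs to the transport machinery of cilia, had -0.44 (SE 0.46, edgeR adjusted p = 0.543) and -0.19 without hyperoxia replicate 1 (SE 0.27, edgeR adjusted p = 0.65), the library in which it had 0 counts.

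**Figure D4:**
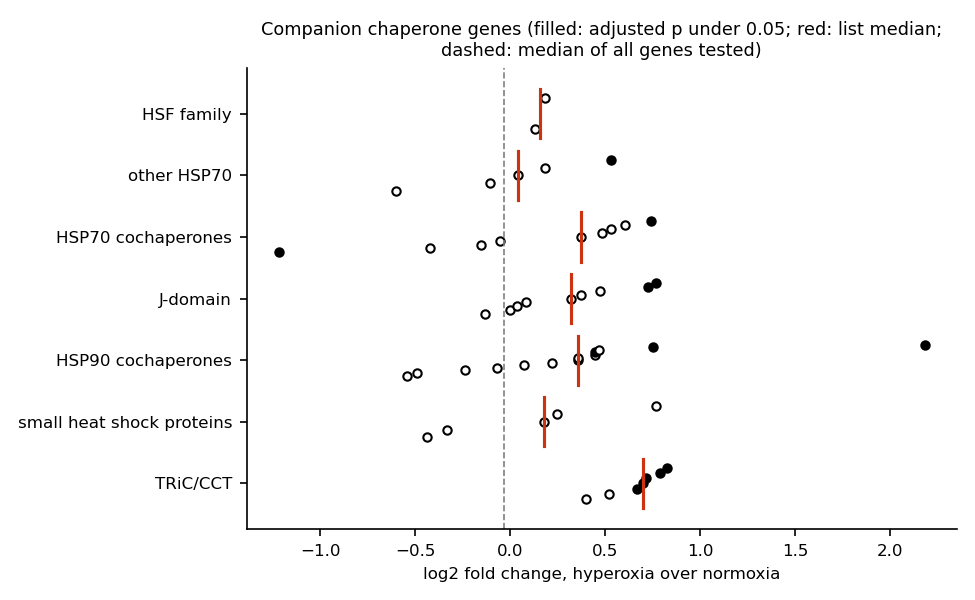
Log2 fold change of hyperoxia over normoxia (x axis) for the 50 companion genes tested, in 7 lists (y axis); each point is a gene, filled where the edgeR adjusted p is under 0.05, red lines are list medians and the dashed line is the median of all genes tested, -0.03. The TRiC/CCT list lies to the right with a median of 0.70, and Fkbp5 is the point at 2.18.

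Several other gene groups moved in the same libraries, and their part in the values above was not tested. Chaperones of the endoplasmic reticulum, which answer to a separate stress pathway, were split: Hspa5 rose (log2 fold change 0.67, edgeR adjusted p = 0.0144) and Hsp90b1, the HSP90 of that compartment, fell (-0.57, edgeR adjusted p = 0.00371), while the other 3 of 5 were not called. Immediate early genes, which respond quickly to handling and stress, were higher in 5 of 11 (6 without hyperoxia replicate 1, and 4 to 6 with each library left out), led by Atf3 at 2.34 (edgeR adjusted p = 0.000328). Of 9 clock genes 4 were lower and 1, Arntl, was higher, a call that 9 of the 13 libraries each ended when left out. Of the cold-inducible RNA-binding proteins, Rbm3 rose by 1.10 on the log2 scale (edgeR adjusted p = 0.00743) and Cirbp was at -0.47 (edgeR adjusted p = 0.498), or -0.23 without hyperoxia replicate 1.

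Markers of other cells also differed. All 5 B cell genes were lower, with a summed level of 210 to 253 CPM in normoxia and 41.5 to 72.0 CPM in hyperoxia, and the 1 T cell gene tested of 4 was lower (19.1 to 34.1 and 7.83 to 19.7 CPM summed). Cardiac muscle genes were lower in 3 of 5 (80.2 to 208 and 4.27 to 161 CPM summed) and smooth muscle genes higher in 3 of 5 (274 to 393 and 443 to 816 CPM summed). Leaving out hyperoxia replicate 6 made 5 cardiac genes lower, and leaving out hyperoxia replicate 2, 4 or 5 or normoxia replicate 3, 5 or 7 made it 2. For smooth muscle the count was 4 without hyperoxia replicate 2 and 2 without hyperoxia replicate 1, 3 or 5 or normoxia replicate 1, 2, 3 or 6. Of erythroid genes 1 of 4 (3 without hyperoxia replicate 2) and of monocyte and macrophage genes 1 of 5 were lower. None of 4 neutrophil or 4 cycling cell genes was called by edgeR, DESeq2 or limma-voom, with 0 and 1 lower and 0 and 0 higher at an unadjusted p under 0.05, but 1 neutrophil gene was lower without hyperoxia replicate 4 and 1 cycling cell gene without hyperoxia replicate 5. No marker of these cell lists was at 0 in every library.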

How the data were processed

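Lung RNA of 7 normoxic and 6 hyperoxic samples was sequenced as Quant-seq libraries. The authors quantified reads with kallisto and deposited raw counts per gene symbol (per the labels, with build mm10 and limma 3.54.2). They also deposited log10 of CPM plus 1, which recomputing from the counts gave to within 1e-12. All columns were mapped to samples by their names.

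Counts were tested with edgeR 4.0.16 (glmQLFit, glmQLFTest; R 4.3.3) after TMM scaling and filterByExpr, with no covariate and Benjamini-Hochberg adjustment over 12496 genes at a threshold of 0.05. Standard errors were the absolute log2 fold change over the square root of F, and log2 CPM used a prior count of 2. Alternatives were DESeq2 1.42.0, limma-voom (limma 3.58.1), limma on the deposited values, other scalings and filters, a replicate block, a term for the letter set of library names, the study's fold change threshold and each library left out. Fits within letter sets and their interaction were added after the data were seen. On simulated data, edgeR, limma-voom and DESeq2 recovered 62%, 54% and 69% of genes changed by 1 on the log2 scale. At a change of 2 each recovered 100%. Of their calls, 4.7%, 4.9% and 10.1% were false. Samples of a group differed by more than sampling noise in all 36 pairs (chi-square per gene at least 3.79). Replicate numbers are not stated to pair the samples and were not used as pairs in the main fit. Of 6 correlations of deviations between equal numbers, 1 exceeded 0.1, which cannot exclude pairing.

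Positions are from GENCODE on GRCm38, matched by symbol, and promoters from RefSeq on GRCm38.p6. The genes, the 7 companion lists and the 13 context lists were chosen with earlier results of these data known. All 10 genes are named, and of each companion list the 2 genes with the smallest adjusted p plus any called gene with an absolute log2 fold change of at least 1. For likeness, the 3 genes with the largest r were found for each gene and the nearest printed, except for Dnajb1 and Hspa8, where it is not reported here.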

Additional observations from a re-analysis of the deposited data

Results flagged for a closer look

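Outlying libraries were looked for in 54 sets of values, one in each group for each heat shock gene, each companion gene named by the rule and each of the 3 paralog ratios, with the gap of the extreme library to its neighbour as a share of the group's range. The test marked 3 sets, where chance alone marks about 1 in 20 sets and would give 2.7. All 3 were hyperoxia replicate 1. It was the highest hyperoxic library for Hsp90ab1, with a gap of 0.791 of the range, and for Cct8, with 0.730, and the lowest for Hspb11, with 0.703.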

How the results depend on the processing

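Hsp90aa1 stayed positive and past the adjusted p threshold in each of the alternative fits run, with log2 fold changes of 0.89 to 1.52. At 1.18 in the main fit, it did not pass the study's further requirement of a log2 fold change above 1.5. The count of heat shock genes higher was 2 with DESeq2 and with a term for the letter set, the added gene being Hsp90ab1 (0.80 and 0.78), where 14.1% and 11.8% of all genes were called higher, and 0 with a log2 fold change above 1.5 required, where 488 genes in all were called in place of 2819. Leaving out each library in turn gave 1 to 3 heat shock genes higher and 0 lower, 11 to 15 companion genes higher and 1 to 2 lower, and 2305 to 3642 genes in all. The library behind the 3 was hyperoxia replicate 1, without which the log2 fold change was 0.57 for Hspa8 and 0.34 for Hsp90ab1. Companion genes lower fell from 1 to 0 with at least 10 counts required in every library, which removed Tomm34 from the test.

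The replicate numbers are not stated to pair the samples, and 1 of 6 normoxic libraries correlated best with its own number, which cannot exclude pairing. With the replicate block 1344 genes were called, Hsp90aa1 at 1.12 (edgeR adjusted p = 0.0304), Hsp90ab1 at 0.57 (edgeR adjusted p = 0.231, not called), and companion genes at 9 higher (3 of 7 for TRiC/CCT) and 0 lower, since Tomm34 was at -1.39 (edgeR adjusted p = 0.0693). The ratio of Hsp90aa1 to Hsp90ab1 over paired numbers differed by 0.54 (exact sign-flip p = 0.0312, the smallest that 6 pairs can give).

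That ratio differed by 0.48 and 0.63 within the letter sets B to M and O to S (exact p = 0.0714 and 0.1), and by 0.45 to 0.67 with each library left out. The ranges with a library left out were -0.74 to -0.40 for Hspa1a plus Hspa1b over Hspa8 and 0.13 to 0.73 for Hspa1a over Hspa1b.

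Direction changed for genes that were not called, and the causes were not tested. Bag3 became 0.0099 with DESeq2, 0.011 with RLE size factors, 0.0036 with a term for the letter set, 0.030 with no filter, 0.44 within O to S, and between -0.12 and 0.18 with libraries left out. Dnajb1 became 0.098 with that term, 0.014 with limma-voom, 0.0055 with no filter, 0.34 within O to S, and between -0.18 and 0.20 with libraries left out. Hspb1 was -0.14 with limma on the deposited log values and -0.24 within B to M, Hspa8 -0.011 within B to M, and Hsf1 1.45 and Hspa1a 0.48 within O to S. Counts of Hsf1 and Hspa1b, at most 22 and 29, limit what these libraries can show of either.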
